A study of Mus musculus with 9 samples.

Results

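The 7 genes described here code for proteins of nitric oxide and cyclic GMP signalling in spinal cholinergic neurons. They were chosen for these roles, with earlier results of these data known, and are *Nos1*, *Nos1ap*, *Gucy1a1*, *Gucy1a2*, *Gucy1b1*, *Prkg1* and *Prkg2*, 7 of the 21457 genes in the deposited matrix. Neuronal nitric oxide synthase makes nitric oxide from arginine, and nitric oxide activates soluble guanylate cyclase, a dimer of an alpha and a beta subunit. The cyclic GMP that the dimer makes activates cGMP-dependent protein kinases and gates channels until phosphodiesterases remove it. In the spinal cord the synthase is a classic marker of preganglionic autonomic neurons, the visceral motor neurons (MNs), while its adaptor, the product of *Nos1ap*, is known for binding the synthase through a PDZ domain.

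The study isolated nuclei from cervical, thoracic and lumbar/sacral cord of 12 mice aged 8 weeks, with 4 mice to a pool, and the 3 pools gave 9 libraries. GFP+/DRAQ5+ nuclei were sorted, and the authors assigned 16042 cholinergic nuclei to 21 clusters. These were 3 skeletal MN clusters (S1 to S3, 5054 nuclei), 10 visceral MN clusters (V1 to V10, 5613 nuclei) and 8 clusters of cholinergic interneurons (I1 to I8, 5375 nuclei). All mice were of the strain Chat-IRES-Cre::Sun1-sfGFP, with the genotype Chat-iCre:+/wt; SUN-SfGFP:+/wt, so the label marks any cell that expressed *Chat* at some time, in development too. Replicate 1 mixed 2 male with 2 female mice, replicate 2 was all male and replicate 3 all female. Each replicate number thus names 3 libraries of 1 set of mice, and sex cannot be told apart from the pool.

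Levels are given as CPM, the deposited values summed over the nuclei of a class or cluster in 1 library and scaled to a total of 1000000. The deposited values are read as corrected counts from the narrow spread of totals within a library, since the labels do not state what they are. The median total per nucleus ran from 4712 corrected counts in lumbar/sacral replicate 1 to 16127 in cervical replicate 2, so shares of nuclei with a count are given after thinning each nucleus to 4600 corrected counts. Among the libraries, 33 cell barcodes occurred in more than 1. The classes were named by the authors with such markers in the same nuclei, so the following values only describe them. *Tns1* averaged 381 CPM in skeletal MNs against 31.3 in visceral MNs and 5.90 in interneurons, *Fbn2* 634 CPM in visceral MNs against 21.8 and 10.1, and *Pax2* 211 CPM in interneurons against 7.03 and 3.46. *Chat* averaged 283, 206 and 189.7 CPM in skeletal MNs, visceral MNs and interneurons.

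A pair of libraries went against their region labels. *Hoxc5* in skeletal MNs was at 16.1 and 15.6 CPM in the libraries labelled cervical replicates 1 and 3, but at 82.5 CPM in the one labelled cervical replicate 2. It was at 102 and 94.5 CPM in those labelled thoracic replicates 1 and 3, but at 9.44 CPM in thoracic replicate 2. *Hoxa9* in interneurons gave the same picture, with 21.7 CPM in the library labelled cervical replicate 2 and 0.516 CPM in thoracic replicate 2. The other cervical libraries held 0.778 and 0.221 CPM of *Hoxa9* and the other thoracic libraries 13.9 and 17.2 CPM. The lumbar/sacral libraries were set apart by *Hoxd11*, at 33.8, 37.4 and 27.2 CPM in skeletal MNs and without a count in the other 6 libraries. The labels were kept as deposited. The region comparison below sets lumbar/sacral libraries against the mean of cervical and thoracic ones, an estimate that an exchange of this pair within replicate 2 would leave as it is, and each region call of a member within a class or cluster is also given without both libraries.

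**Figure D1:**
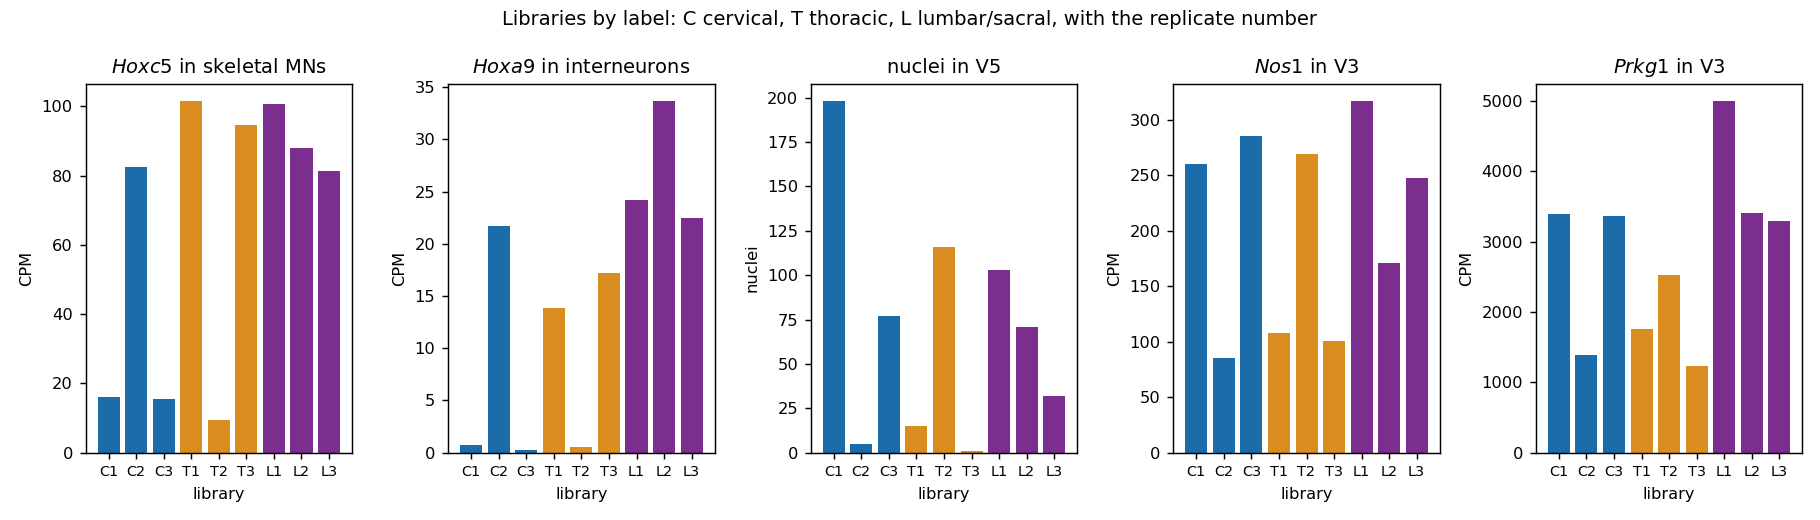
*Hoxc5* and *Hoxa9* (CPM), nuclei in cluster V5, and *Nos1* and *Prkg1* in cluster V3 (CPM), with 1 bar for each library under its deposited label. The bars C2 and T2, the libraries labelled cervical and thoracic replicate 2, stand with libraries of the opposite label, except that T2 lies between both groups for *Prkg1* in V3.

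*Nos1* and *Prkg1* in cluster V3 sided with the *Hox* genes rather than the labels, a pattern picked out after its values were seen. *Nos1* in V3 was at 260 CPM in cervical replicate 1 and 285 CPM in cervical replicate 3, but at 85.1 CPM in the library labelled cervical replicate 2. In the thoracic libraries it was at 108 and 100.3 CPM in replicates 1 and 3 and at 269 CPM in the one labelled replicate 2. *Prkg1* in V3 was likewise at 3391 and 3361 CPM in cervical replicates 1 and 3, 1764 and 1230 CPM in thoracic replicates 1 and 3, 1395 CPM in the library labelled cervical replicate 2 and 2531 CPM in that labelled thoracic replicate 2. By *Hox* content, both genes were therefore higher in V3 nuclei of the 3 libraries with low *Hoxc5* than in those of the 3 outside the lumbar/sacral cord with high *Hoxc5*, with no overlap. The number of V5 nuclei split in the same way. V5 held 198, 77 and 116 nuclei in the libraries labelled cervical replicates 1 and 3 and thoracic replicate 2. It held 5, 15 and 1 in cervical replicate 2 and thoracic replicates 1 and 3. Not every visceral cluster did so, as V4 overlapped, with 107, 30 and 44 nuclei against 44, 145 and 132 in the same order. No contrast between cervical and thoracic cord was tested.

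The synthase gene *Nos1* separated all 3 classes, and its highest class was the interneurons. Over the 9 libraries it ran from 4.49 to 22.4 CPM in skeletal MNs (median 7.87), from 164 to 254 CPM in visceral MNs (median 217), and from 370.1 to 549 CPM in interneurons (median 423). The ranges of the 3 classes did not overlap, and the highest skeletal value was that of the library labelled cervical replicate 2, where the other 8 libraries stayed at or below 11.5 CPM. A gene was counted as apart between 2 classes when the mean difference in log2(CPM + 5) was at least 1 and had 1 sign in all 9 libraries. This is a description, since the authors drew the classes from the same nuclei. *Nos1* was apart in each of the 3 comparisons, by 3.90 ± 0.44 (SD, n = 9) for visceral over skeletal MNs, -1.09 ± 0.41 for visceral MNs minus interneurons and -4.99 ± 0.51 for skeletal MNs minus interneurons.

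Detection of *Nos1* in single nuclei showed the same order. After thinning, 3.90% ± 3.40 (SD, n = 9) of skeletal nuclei, 44.7% ± 3.74 of visceral nuclei and 56.2% ± 6.65 of interneuron nuclei had a count, at median depths of 7393, 7519 and 6986 corrected counts before thinning. Skeletal MNs served as the cells that should lack *Nos1*, and the shares were 2.62% in S1, 4.91% in S2 and 2.95% in S3. The S2 share is raised by the library labelled cervical replicate 2, in which 28.2% of S2 nuclei had a *Nos1* count, against 0 to 3.80% in the other 8. The lowest interneuron clusters, I5 and I6, had shares of 3.75 and 3.95%.

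The adaptor gene *Nos1ap* was highest in skeletal MNs, the class with the least *Nos1*. It ran from 327 to 545 CPM in skeletal MNs (median 488), from 44.3 to 60.2 CPM in visceral MNs (median 51.8) and from 48.2 to 86.6 CPM in interneurons (median 71.1). The skeletal range lay wholly above the others, which overlapped, and the lowest skeletal value came from the library labelled cervical replicate 2. In log2(CPM + 5), visceral minus skeletal MNs gave -3.07 ± 0.19 and skeletal MNs minus interneurons gave 2.67 ± 0.21 (SD, n = 9), while visceral MNs minus interneurons gave -0.40 ± 0.17 and was not apart. Per kilobase of gene, skeletal MNs held 1.73 CPM of *Nos1ap* and 0.106 CPM of *Nos1*, whereas interneurons held 0.258 CPM of *Nos1ap* and 4.85 CPM of *Nos1*. By this scaling the adaptor had the higher value in skeletal MNs and the synthase in interneurons and in visceral MNs. The visceral values were 0.189 CPM per kilobase of *Nos1ap* and 2.26 of *Nos1*. How counts scale with gene length was not tested, so values per kilobase do not rank genes by their number of transcripts.

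**Figure D2:**
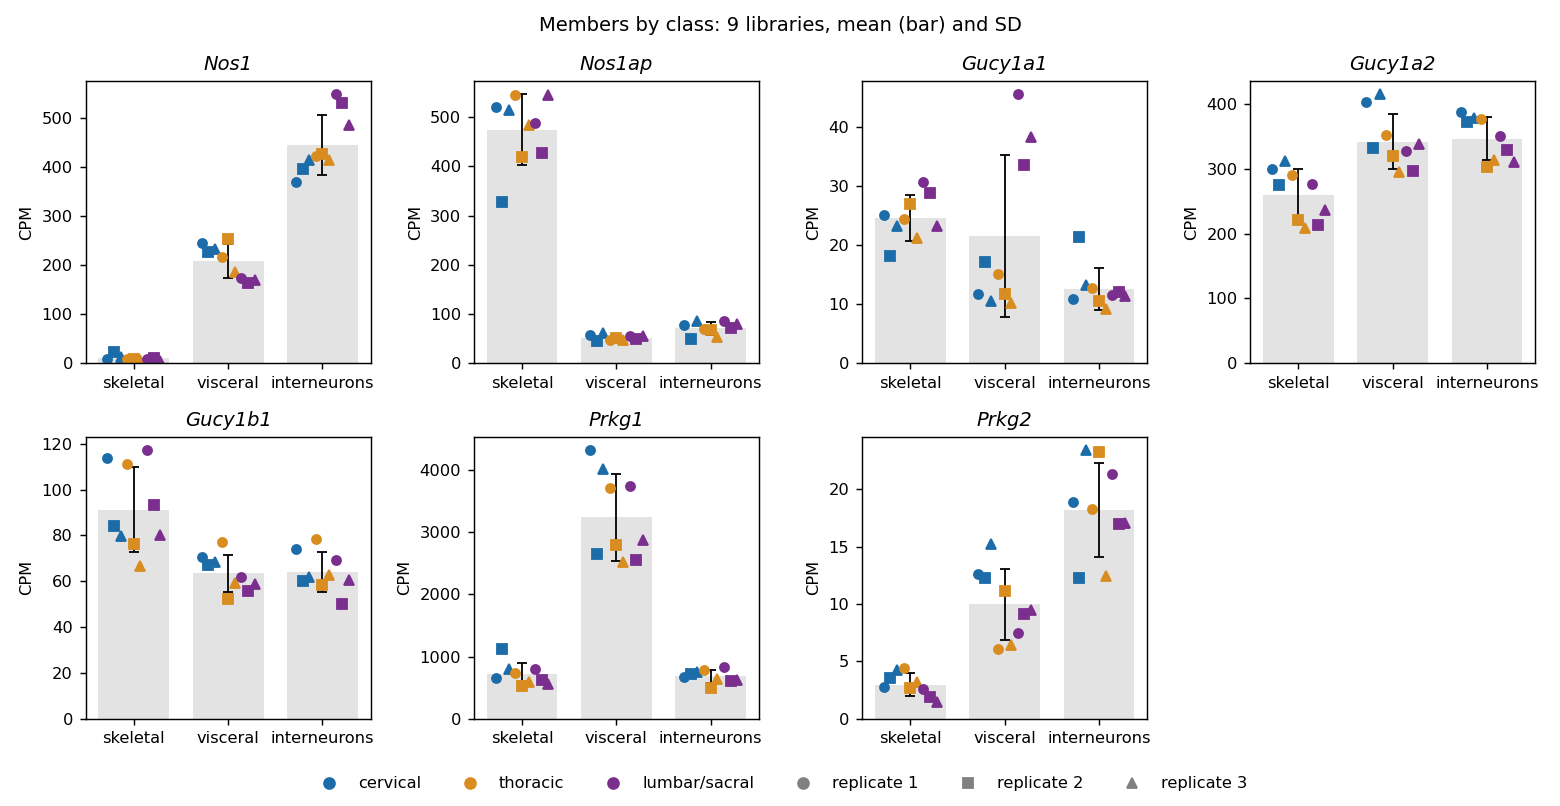
CPM of each member in skeletal MNs, visceral MNs and interneurons, with bars for the mean of 9 libraries, error bars for the SD, and 1 point for each library, coloured by labelled region and shaped by replicate. Skeletal MNs are lowest for *Nos1* and highest for *Nos1ap*, *Prkg1* stands out in visceral MNs, and the 3 lumbar/sacral points of *Gucy1a1* lie above the other visceral points.

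Among the cyclase subunits, none was apart between classes. *Gucy1a2*, an alpha subunit gene, was at 343 ± 42.2 CPM in visceral MNs and 347 ± 33.7 in interneurons, and at 259.7 ± 39.9 in skeletal MNs (SD, n = 9). *Gucy1b1*, which codes for the shared beta subunit, was at 91.3 ± 18.4 CPM in skeletal MNs, against 63.4 ± 7.96 in visceral MNs and 64.0 ± 8.61 for interneurons. *Gucy1a1*, the other alpha subunit gene, was at 24.6 ± 3.86, 21.5 ± 13.7 and 12.5 ± 3.51 CPM in the same order, and its spread in visceral MNs was the largest relative to its mean. Every class thus held transcripts for a beta and for an alpha subunit. Per kilobase of gene, *Gucy1b1* exceeded *Gucy1a2*, and *Gucy1a2* exceeded *Gucy1a1* in all 3 classes, at 1.49, 0.917 and 0.402 CPM per kilobase in visceral MNs. *Gucy1b2*, the remaining soluble cyclase gene, was below 3 CPM in each class on average.

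Of the kinases, *Prkg1* was the visceral one. It ran from 2518 to 4325 CPM in visceral MNs (median 2876), from 530.3 to 1116 CPM in skeletal MNs (median 653) and from 495 to 838 CPM in interneurons (median 666). The visceral values were all above those of both other classes, which overlapped each other. The difference in log2(CPM + 5) was 2.19 ± 0.40 for visceral over skeletal MNs and 2.24 ± 0.26 (SD, n = 9) for visceral MNs over interneurons. *Prkg1* is a very long gene, and its sequencing from nuclei counts unspliced RNA. Per kilobase, with the limit given for *Nos1ap*, it reached 2.70 CPM in visceral MNs, the highest such value of the 7 members in that class. After thinning, 99.0% ± 0.781 of visceral nuclei had a count, against 61.0% ± 8.64 of skeletal and 76.4% ± 4.81 of interneuron nuclei. *Prkg2*, which codes for the membrane-bound kinase, was rare, at 18.2 ± 4.09 CPM in interneurons, 9.97 ± 3.096 in visceral MNs and 2.96 ± 1.01 in skeletal MNs. It was apart only between skeletal MNs and interneurons, by -1.53 ± 0.32. This call depended on the pseudocount, as the difference was -0.73, no longer apart, with a pseudocount of 20 and -2.29 with a pseudocount of 1.

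All 7 members entered the class comparison, and 8 of their 21 pairings of gene and classes were apart. For visceral over skeletal MNs these were 2 members (*Nos1*, *Prkg1*), beside 5.35% of the 11292 genes compared, and for skeletal over visceral MNs 1 member (*Nos1ap*), beside 6.12%. For visceral MNs over interneurons it was *Prkg1* (3.85% of all genes) and for interneurons over visceral MNs *Nos1* (3.60%). Skeletal MNs exceeded interneurons in *Nos1ap* (5.67%), and interneurons exceeded skeletal MNs in *Nos1* and *Prkg2* (4.91%). The members' median size of the log2 difference was 0.89, 0.46 and 0.77 in the comparisons of visceral with skeletal MNs, visceral MNs with interneurons and skeletal MNs with interneurons, where all genes had 0.27, 0.18 and 0.22. As the members were proposed with class patterns known, these shares only describe them. Left without the library labelled cervical replicate 2, the number apart was again 8.

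*Nos1* varied widely among the interneuron and the visceral clusters and little among the skeletal ones. Its highest level was in I1, at 923 ± 63.2 CPM, followed by I3 at 716 ± 95.4 (SD, n = 9 each), and these were each beyond the spread of the next cluster. Then came a continuous series in which no neighbours differed beyond their spread, V10 (539 ± 154, n = 7), I4 (516 ± 59.4), V2 (429 ± 149), V6 (387 ± 132, n = 8), I7 (319.9 ± 61.3, n = 6), I8 (295 ± 44.2, n = 8), V9 (227 ± 92.4, n = 6) and V3 (205 ± 89.3). The series went on through V5 (122 ± 22.1, n = 7), V4 (113 ± 48.6), I2 (96.4 ± 77.5), V8 (80.0 ± 15.5, n = 3), V1 (77.2 ± 54.6) and V7 (69.4 ± 30.2). A gap beyond the spread separated V7 from the 5 lowest clusters, I6 (14.1 ± 7.35), S2 (12.2 ± 16.0), S3 (8.20 ± 3.14), I5 (8.01 ± 4.09) and S1 (7.01 ± 3.19). The S2 mean is raised by the library labelled cervical replicate 2 (52.0 CPM), and the S2 median was 6.57 CPM. The visceral clusters thus ranged from 69.4 to 539 CPM, and 2 of the 8 interneuron clusters were as low as skeletal MNs. Of the nuclei in I1, 91.8% ± 2.80 had a *Nos1* count after thinning, and V7 had the smallest share of the clusters above the gap.

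*Nos1ap* was not shared evenly among the skeletal clusters. S2, which the authors labelled alpha MNs, had 795 ± 224 CPM and S1, their Type 3 MNs, 755 ± 51.1 CPM, a difference within the spread. S3, their gamma MNs, had 123 ± 19.5 CPM, below I8 (307 ± 43.2, n = 8), and I8 was the interneuron cluster with the highest level. From S3 downward through I7 (103 ± 23.8), V5 (99.9 ± 22.8) and I4 (82.1 ± 10.5) to I6 (30.1 ± 10.8), no neighbours differed beyond their spread, and I5 was lowest at 14.3 ± 9.23 CPM. A *Nos1ap* count was found in 96.1% ± 1.64 of S1 nuclei and 40.9% ± 6.12 of S3 nuclei after thinning, against 5.30% ± 3.47 in I5. In S2 the lowest value, 271 CPM, came from the library labelled cervical replicate 2.

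*Prkg1* divided the clusters of all 3 classes. Its level was highest in V6 (5540 ± 1255 CPM, n = 8), V4 (4103 ± 1800), V9 (4057 ± 638, n = 6) and V5 (3863 ± 973, n = 7), and each of the 10 visceral clusters was above every other cluster on average. The lowest visceral cluster, V1 (1403 ± 381 CPM), stood beside the gamma cluster S3 (1295 ± 244 CPM), a difference within the spread. S3 held more *Prkg1* than S2 (302 ± 417 CPM) and S1 (170.5 ± 80.4 CPM), the opposite of the order for *Nos1ap*. Among interneurons I3 (953 ± 174), I1 (901 ± 138), I6 (822 ± 237), I5 (746 ± 234) and I4 (710.3 ± 175) were far above I2 (198 ± 158), I7 (116 ± 69.9) and I8 (54.7 ± 49.0). The gaps beyond the spread of neighbours were those between V7 (2479 ± 729) and V1 and between S3 and I3. The S2 mean is raised by 1 library, as the one labelled cervical replicate 2 had 1390 CPM and the other 8 had 52.8 to 319 CPM.

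**Figure D3:**
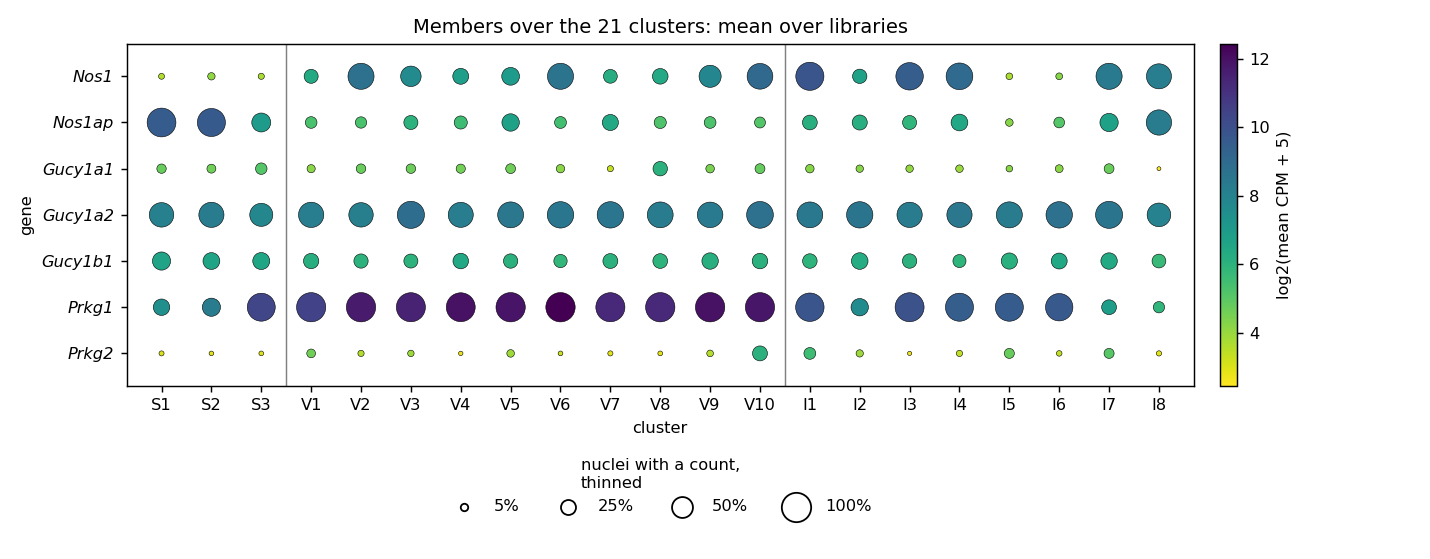
Colour gives log2(mean CPM + 5) over libraries with at least 10 nuclei of the cluster, and dot area grows with the mean percent of nuclei with a count after thinning, for each member in the 21 clusters. *Nos1* is high in I1 and I3 and low in S1 to S3, I5 and I6, and *Nos1ap* is high in S1 and S2. *Gucy1a2* and *Gucy1b1* vary less than *Nos1* and *Nos1ap*.

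*Gucy1a2* and *Gucy1b1* changed gradually from cluster to cluster. The ends of the *Gucy1a2* series were still apart, with at least 358 CPM in each V3 library and at most 264 CPM in each S3 library. *Gucy1a2* ran from 220.4 ± 31.0 CPM in S3 to 481 ± 73.9 CPM in V3, and *Gucy1b1* from 47.0 ± 12.1 CPM in I8 (n = 8) to 95.5 ± 17.3 CPM in S1, and in neither gene did any of the 20 pairs of neighbours differ beyond their spread. The 3 skeletal clusters were the highest for *Gucy1b1*. *Gucy1a1* had 1 such gap, between V8 and all others: V8, found almost wholly in the lumbar/sacral libraries (99.1% of its nuclei), was at 62.1, 60.7 and 60.4 CPM in lumbar/sacral replicates 1, 2 and 3. The next cluster, S3, was at 29.4 ± 4.06 CPM, and the lowest, I8, at 0.458 ± 1.29 CPM (n = 8). After thinning, 23.1% ± 2.29 of V8 nuclei had a *Gucy1a1* count, against 0.272% ± 0.769 in I8. *Prkg2* was highest in V10 (60.9 ± 30.6 CPM, n = 7) and I1 (42.4 ± 12.01 CPM), then I7 (28.9 ± 15.2), I5 (22.6 ± 4.90) and V1 (19.5 ± 7.86). A gap beyond the spread followed V1, and the remaining 16 clusters were at 10.1 CPM or less, down to 1.36 ± 1.80 CPM in I3.

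Across the 21 clusters, the members did not form 1 common pattern. Of their 21 pairs, Pearson's r of the mean log2(CPM + 5) was farthest from 0 for *Nos1* with *Gucy1b1* (r = -0.70), *Nos1ap* with *Prkg1* (r = -0.64) and *Gucy1a1* with *Gucy1b1* (r = 0.42). These values describe 21 clusters that share libraries and depth. Among the 14465 genes compared in this way, those most like *Nos1* were *Shisa9* (r = 0.87), *mt-Nd2* (r = 0.87) and *Gm26995* (r = 0.85), which lies within *Nos1* on the other strand. *Nos1ap* was most like *Rreb1* (r = 0.88), *Fut2* and *Plcb1* (both r = 0.87), and *Prkg1* was most like *Aida*, *Ino80* and *Tmem178* (all r = 0.88). For *Gucy1a1* they were *Commd10* (r = 0.84), *Aebp2* (r = 0.81) and *Gm47523* (r = 0.80), and *Gucy1a2* had r = 0.75 with *Stat5b* and r = 0.74 with *Zfp318*. For *Gucy1b1* they were *Etl4* (r = 0.81), *Rnf207* and *Gins1* (both r = 0.80), and for *Prkg2* *Cttnbp2* (r = 0.75), *Unc13c* and *Vsnl1* (both r = 0.72).

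Nuclei with and without a count of 1 member were compared within each cluster and library. Of nuclei with a *Prkg2* count 82.1% had a *Nos1* count, against 75.3% of those without, a difference of 6.72 ± 3.23 points (SD) over 12 combinations of library and cluster, positive in 8 of 8 libraries. Split on *Nos1* instead, over 82 combinations, the difference in *Prkg2* was 1.91 ± 3.62 points, positive in 7 of 9 libraries. *Prkg1* was 1.94 ± 1.69 points more frequent in nuclei with *Nos1* (8 of 9 libraries), and *Nos1* 4.27 ± 4.70 points more frequent in nuclei with *Prkg1* (7 of 8). Of nuclei with *Gucy1a1* 34.4% also had *Gucy1b1*, its partner in the dimer, against 29.96% of nuclei without *Gucy1a1*, a difference of 4.47 ± 7.03 points. For *Gucy1a2*, the other alpha gene, the difference in *Gucy1b1* was -2.43 ± 4.66 points, and in visceral MNs it was -6.16 ± 5.34 points, positive in 1 of 9 libraries. In interneurons the difference in *Nos1ap* between nuclei with and without *Nos1* was -6.37 ± 4.63 points (positive in 1 of 8 libraries). Split on *Nos1ap* instead, their difference in *Nos1* was -2.08 ± 4.85 points (3 of 8). Interneuron nuclei with *Nos1ap* had *Prkg2* more often, by 2.92 ± 2.84 points (8 of 8). The other classes went the other way, at -0.88 ± 0.68 points in skeletal MNs (0 of 9) and -0.59 ± 4.09 in visceral MNs (2 of 9). The skeletal value rests on few counts, as *Prkg2* was found in 0.677% of nuclei with and 1.55% of nuclei without *Nos1ap*. All these differences are picked from all pairs of members. Nuclei of a library are not replicates, and co-detection was not tested.

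Of 65 other genes listed for the pathway, 34 entered the class comparison. Visceral MNs were above skeletal MNs in 4 of the 34 (5.35% of all genes) and below them in 5 (6.12%). They were above interneurons in 4 (3.85%) and below them in 5 (3.60%), and skeletal MNs were above interneurons in 4 (5.67%) and below them in 4 (4.91%). The genes higher in visceral than in skeletal MNs were *Ass1*, which codes for an enzyme of arginine synthesis (40.3 against 5.62 CPM), *Ddah1* (82.3 against 35.7 CPM) and *Ddah2* (10.0 against 1.76 CPM), which clear methylated arginines, and *Dynll1* (31.1 against 12.5 CPM), whose product binds the synthase. Skeletal MNs were higher in the arginine transporter gene *Slc7a2* (9.69 against 1.26 CPM), the natriuretic peptide clearance receptor gene *Npr3* (90.5 against 27.2 CPM) and the phosphodiesterase gene *Pde9a* (52.7 against 13.7 CPM). They were also higher in *Itpr1*, an IP3 receptor gene (91.3 against 23.0 CPM), and *Mrvi1*, whose product links the kinase to that receptor (22.0 against 0.495 CPM).

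Interneurons exceeded both MN classes in the phosphodiesterase genes *Pde5a* (42.2 CPM against 4.33 in skeletal and 1.74 in visceral MNs), *Pde11a* (188 against 13.1 and 31.0 CPM), *Pde1c* (234 against 83.6 and 71.5 CPM) and the channel gene *Cngb3* (12.4 against 3.18 and 1.72 CPM). The cGMP-specific *Pde5a* and the *Nos1* transcript were thus both highest in this class. Visceral MNs exceeded interneurons in *Pde1a* (385 against 117 CPM), *Npr3* (27.2 against 1.11 CPM), *Ass1* (log2 difference 1.40) and *Ddah2* (10.0 against 0.733 CPM). The other synthase genes were near 0, with at most 1.05 CPM of *Nos2* and 1.89 CPM of *Nos3* on average in any class. The median log2 difference between visceral and skeletal MNs was 0.00 over these 34 genes and 0.04 over all genes.

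**Figure D4:**
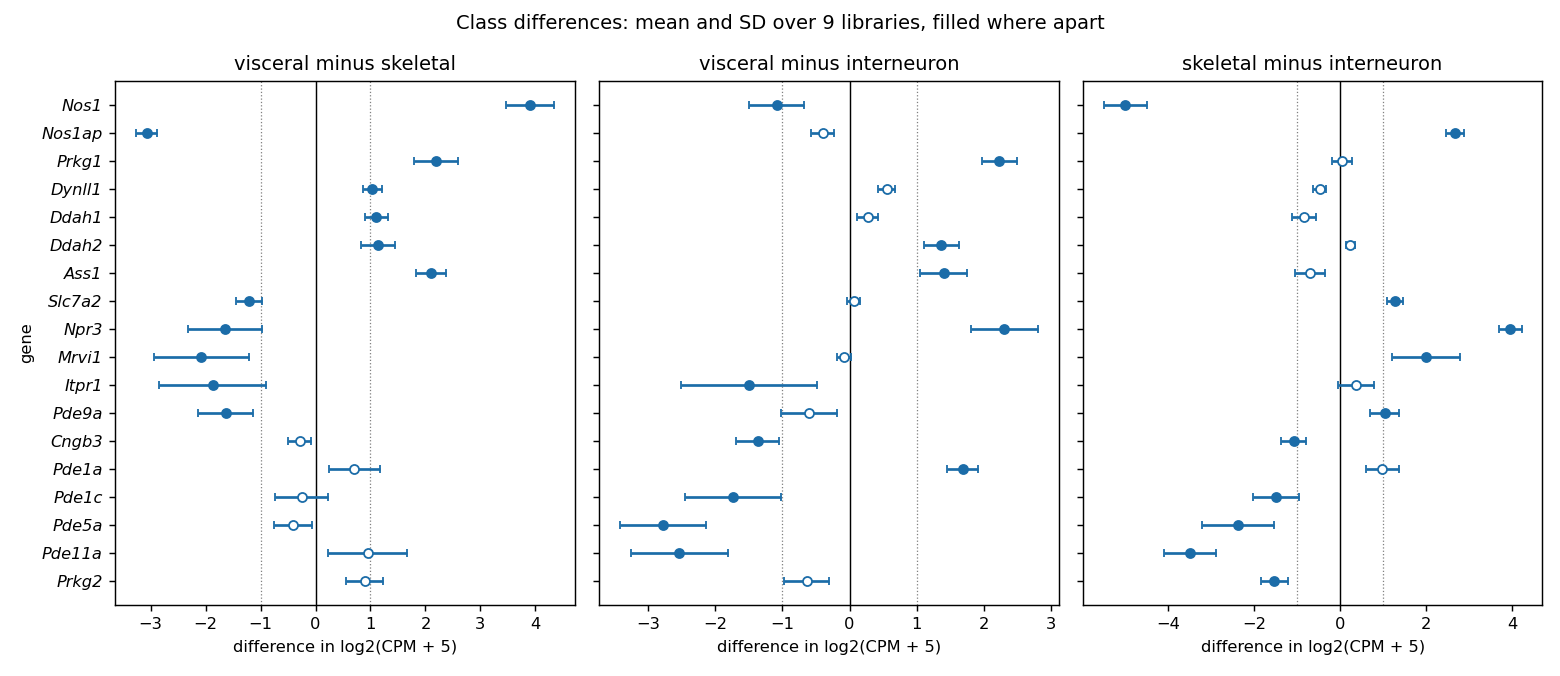
Mean difference in log2(CPM + 5) between classes, with the SD over 9 libraries, for each member or pathway gene that was apart in at least 1 comparison, filled where apart and with dotted lines at a difference of 1 either way. Visceral MNs show *Nos1*, *Prkg1* and *Ass1* to the right of skeletal MNs, and interneurons hold more *Pde5a* and *Pde11a* than both MN classes.

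Region comes from the dissection and not from the clustering, so it was tested, with limma over all genes that reached 10 CPM in 3 or more sums. In skeletal MNs 6 of the 7 members passed that filter, all but *Prkg2*, and in visceral MNs and interneurons 7 of 7. In skeletal MNs 0 of 6 members were called at an adjusted p under 0.05, beside 0.0100% of 9999 genes, and 0 of 6 had an unadjusted p under 0.05. The 6 skeletal differences were between -0.19 and 0.21 in log2, for *Nos1* and *Gucy1a1*. Scaling matters there, as the median difference of all genes was 0.12 with totals and -0.01 with the median of ratios. Of the other pathway genes limma called 0 of 29 in skeletal MNs and 0 of 27 in interneurons, where 4 and 2 had an unadjusted p under 0.05, as had 402 of 9999 and 331 of 9805 genes.

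In visceral MNs 1 of 7 members was called, *Gucy1a1*, beside 4.27% of 10031 genes. Its levels were 45.5, 33.6 and 38.3 CPM in lumbar/sacral replicates 1, 2 and 3. They were 11.7, 17.2 and 10.4 CPM in the cervical libraries and 15.1, 11.6 and 10.1 CPM in the thoracic ones. All 3 lumbar/sacral values were above all 6 others, with no overlap. The difference was 1.33 in log2 (SE 0.165, limma adjusted p = 0.00241). Leaving out any 1 library gave an adjusted p of 0.00171 to 0.0246, leaving out the pair of replicate 2 gave 0.00430, and a replicate block, which pairs libraries of the same mice, gave 0.00236. Beside it, 3 of 29 other pathway genes were called (9 had an unadjusted p under 0.05, as had 1336 of 10031 genes), all higher in lumbar/sacral visceral MNs: *Pde3a* (log2 difference 2.18, adjusted p = 0.00367), *Itpr1* (1.52, adjusted p = 0.000930) and *Npr3* (0.94, adjusted p = 0.0397). *Npr3* lost its call without the pair of replicate 2 (0.86 in log2, adjusted p = 0.0514), with the median of ratios (adjusted p = 0.104) and without a filter (adjusted p = 0.0559). It kept its call only without cervical replicate 2 or 3 when 1 library was left out, with an adjusted p of 0.0139 to 0.205. On simulated sums laid out like these visceral libraries, 9.63% of the region calls were false, more than the nominal 5%, which limits the calls in visceral MNs.

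The visceral libraries of the regions held different clusters, and the part of this in the *Gucy1a1* difference was not tested. V8, its highest cluster, made up 33.4, 25.8 and 32.4% of the visceral nuclei of lumbar/sacral replicates 1, 2 and 3 and at most 0.279% elsewhere. Without V8 the difference in *Gucy1a1* was 0.98 in log2 (SE 0.181) and remained called (adjusted p = 0.0334), whereas *Pde3a* was at 1.22 (adjusted p = 0.107), *Npr3* at 0.63 (adjusted p = 0.291) and *Itpr1* at 1.16 (adjusted p = 0.00842). When the visceral clusters with enough nuclei in every library, V1 to V4 and V7, were given equal weight, *Gucy1a1* was at 0.17 (SE 0.309, adjusted p = 0.999). The 3 other genes lost their calls there too, with *Itpr1* at 0.98 (adjusted p = 0.0921), *Pde3a* at 1.25 (adjusted p = 0.105) and *Npr3* at 0.52 (adjusted p = 0.907). For *Gucy1a1* that mean covers clusters of unlike sign, since it was at 2.04 in V2 and 0.47 in V3, but -0.82 in V1 and -0.92 in V4, of which V2 alone was called. *Gucy1a1* is also made by vascular mural cells, which the sort for GFP and the choice of cholinergic clusters select against, and 3 pericyte and smooth muscle markers were summed. They gave 7.75, 4.57 and 1.99 CPM in the visceral sums of lumbar/sacral replicates 1, 2 and 3, 1.63, 0.607 and 2.41 CPM in the cervical ones and 0.543, 3.33 and 2.05 CPM in the thoracic ones. All 3 of the 3 had a count, none reached 10 CPM, the most abundant was *Rgs5* (mean 1.85 CPM), and their part in the result was not tested.

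*Nos1* missed the threshold in visceral MNs, where the lumbar/sacral libraries held the lower values. They had 175, 164 and 169.7 CPM, against 246, 228 and 234 in the cervical and 217, 254 and 186 in the thoracic libraries, replicates 1, 2 and 3 in order. The ranges did not overlap, and the difference was -0.41 in log2 (SE 0.106, limma adjusted p = 0.0766). It passed the threshold with the replicate block (adjusted p = 0.0445) and without thoracic replicate 3 (adjusted p = 0.0454, in a range up to 0.267 with 1 library left out). Without V8, where *Nos1* averaged 80.0 CPM, the difference was -0.12 (adjusted p = 0.917). With equal weights of clusters almost no difference remained, at 0.0101 (limma adjusted p = 0.9997). In interneurons *Nos1* leaned the other way, at 549, 532 and 486 CPM in lumbar/sacral replicates 1, 2 and 3 and 370.1 to 427 CPM in the other 6 libraries. That difference of 0.35 in log2 (SE 0.0794) had an unadjusted p under 0.05 but an adjusted p of 0.284 (0.167 with the block, 0.361 to 0.999 with 1 library left out), and in interneurons 0 of 7 members were called by limma, beside 0.0510% of 9805 genes. *Nos1* was the 1 interneuron member with an unadjusted p under 0.05. The members' median log2 difference was -0.13 in visceral MNs and 0.03 in interneurons, where all genes had 0.06 and 0.01.

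Whether the lumbar/sacral difference itself varied between the classes was tested with an interaction of class and region. The classes of a library come from the same mice, and the fit had a term for each library. That term takes up differences between pools that all classes share, and no separate replicate block was run. The interaction called 1 of 7 members, *Gucy1a1* (adjusted p = 9.89e-05), beside 9.99% of 11292 genes, and leaving out any 1 library gave an adjusted p of 1.24e-06 to 0.00394. Its lumbar/sacral difference was larger in visceral than in skeletal MNs by 1.11 in log2, and 6.76% of the interaction calls on simulated sums were false. The visceral sums of this test included V8, the cluster with the most *Gucy1a1*. V8 made up 33.4, 25.8 and 32.4% of visceral nuclei in lumbar/sacral replicates 1, 2 and 3. The part of cluster make-up in this call was not tested. *Nos1*, with its opposite signs in visceral MNs and interneurons, had an adjusted p of 0.0860 there. It passed without the library labelled cervical replicate 2 (adjusted p = 0.0108) and without both libraries of that pair (adjusted p = 0.0316), with a range of 0.0108 to 0.261 over the 9 libraries left out.

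The test was repeated within single clusters, in the 14 clusters with at least 10 nuclei in every library. Of 86 tests of members, 4 were called, beside 0.651% of 139853 tests of all genes. In V2, *Gucy1a1* was at 55.5, 35.6 and 56.0 CPM in lumbar/sacral replicates 1, 2 and 3 at 11.1, 6.94 and 9.61 CPM in the cervical libraries and at 9.33, 10.1 and 2.53 CPM in the thoracic ones. All 3 lumbar/sacral values were above the rest. The difference was 2.04 in log2 (SE 0.336, adjusted p = 0.00436, against 3.07% of the genes of V2 called), with an adjusted p of 0.00523 to 0.0474 when 1 library was left out and 0.00534 without the pair. V5, not tested because it had too few nuclei in some libraries, had 41.1, 49.7 and 23.4 CPM in its lumbar/sacral libraries and 3.92 to 8.76 CPM in the 4 others with at least 10 nuclei.

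*Prkg1* was called in V4, downward, and in I2, upward. In V4 it was at 2233, 1560 and 2310 CPM in lumbar/sacral replicates 1, 2 and 3, at 6361, 4425 and 6655 CPM in the cervical libraries and at 5114, 4146 and 4120 CPM in the thoracic ones. Here the lumbar/sacral values were below all 6 others. The log2 difference was -1.33 (SE 0.238, limma adjusted p = 0.00884, against 2.74% of the genes of V4). The adjusted p was 0.0114 without the pair and 0.0680 without lumbar/sacral replicate 2, the 1 library whose removal ended this call. In I2 *Prkg1* was at 430, 446 and 318 CPM in lumbar/sacral replicates 1, 2 and 3 at 124, 146 and 126 CPM in the cervical libraries and at 47.3, 91.3 and 49.1 CPM in the thoracic ones, with no overlap. There the difference was 2.08 (SE 0.203, adjusted p = 0.000425, against 0.511% of the genes of I2), 0.000249 without the pair and at most 0.00754 with 1 library left out.

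*Nos1* was called in I2 as well, the same interneuron cluster in which *Prkg1* rose. Its levels were 168, 213 and 205 CPM in lumbar/sacral replicates 1, 2 and 3 41.0, 28.8 and 59.8 CPM in the cervical libraries and 23.7, 89.1 and 39.3 CPM in the thoracic ones, again with no overlap. The difference was 2.06 in log2 (SE 0.321, limma adjusted p = 0.0148, and 0.00128 without the pair). Without lumbar/sacral replicate 2 the adjusted p was 0.135 and without lumbar/sacral replicate 3 it was 0.127, while the log2 difference stayed between 1.86 and 2.29 in all 9 fits with a library left out. After thinning, 37.8, 41.9 and 34.2% of lumbar/sacral I2 nuclei had a *Nos1* count, against 9.09 to 25.2% in the other libraries. In I1, the cluster with the most *Nos1*, no difference was called, with means of 933 and 917 CPM. *Nos1* in V2 was lower in lumbar/sacral libraries (260, 305 and 260 CPM) than in the other 6 (345 to 679 CPM) but missed the threshold, at -0.84 in log2 (adjusted p = 0.0555, and 0.0210 to 0.276 with 1 library left out). With the replicate block all 4 calls within clusters were kept, at adjusted p of 0.00366 (*Gucy1a1* in V2), 0.000831 (*Prkg1* in V4), 0.00167 (*Nos1* in I2) and 6.15e-06 (*Prkg1* in I2). *Nos1* in V2 (adjusted p = 0.0103) and *Prkg1* in V7 (-0.55 in log2, adjusted p = 0.0485, against 0.434 without the block) passed as well.

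**Figure D5:**
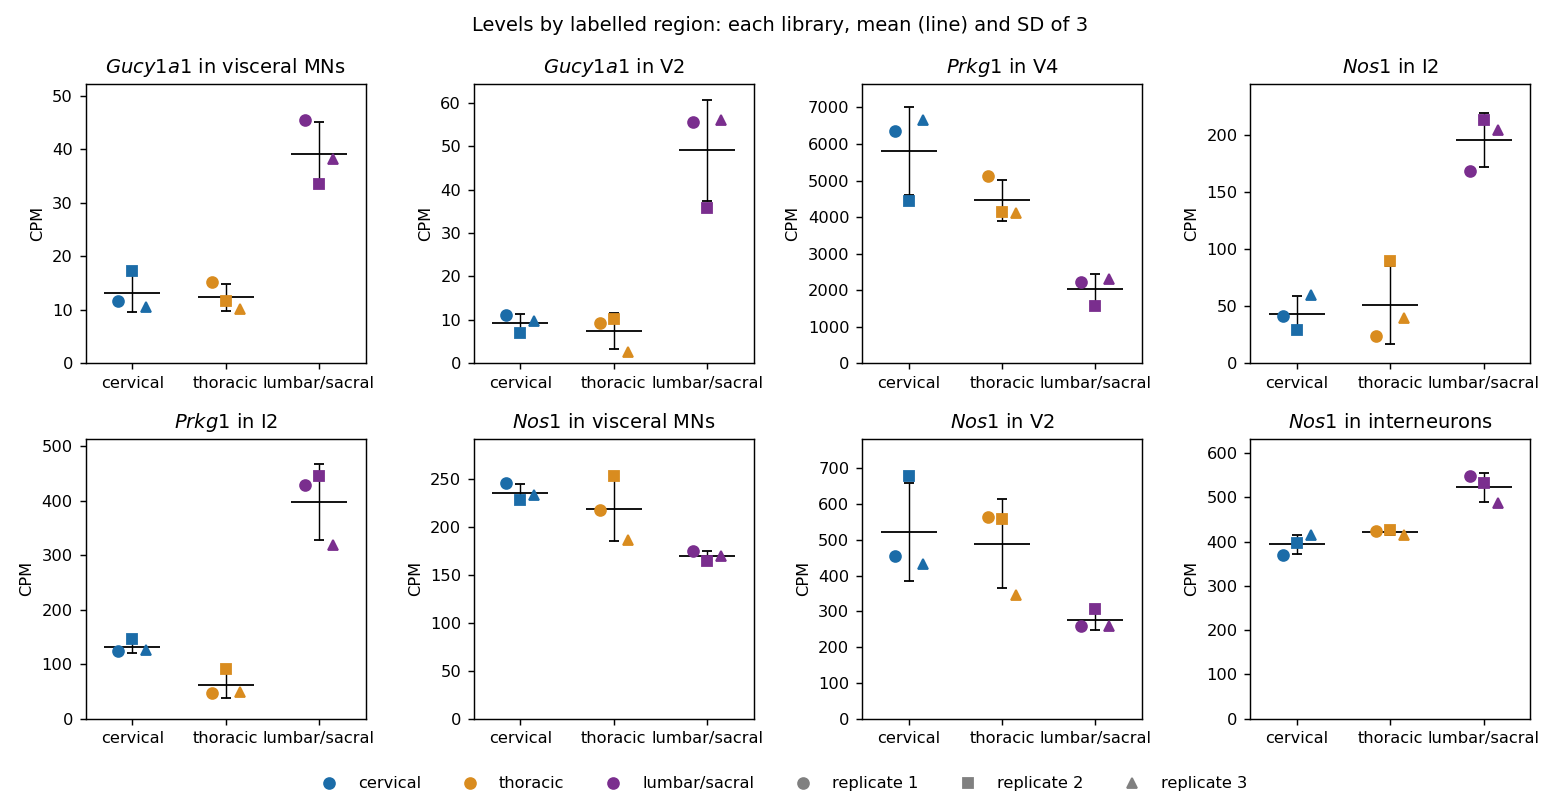
CPM by labelled region in 8 combinations of gene and class or cluster, with 1 point for each library, shaped by replicate, lines for the mean and error bars for the SD of 3 libraries. The lumbar/sacral points lie clear of the others for *Gucy1a1* in visceral MNs and V2, *Prkg1* in V4 and I2, and *Nos1* in I2, which were called, and for *Nos1* in visceral MNs, V2 and interneurons, which were not.

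The promoters of 4 members are shown, those of *Nos1* and *Prkg1* because both rose in I2, and those of *Gucy1a1* and *Gucy1b1* because these neighbouring genes, 17715 bases apart on chromosome 3 and on the same strand, differed in that *Gucy1a1* alone was called in visceral MNs. The promoter table at hand, made from RefSeq starts on GRCm38.p6, held 6 of the 7 members and had no entry for *Prkg2*. Each run gives 300 bases, 250 before and 50 after a listed start, 5′ to 3′ on the gene's strand, at chr5:117866589-117866888 (+), chr19:31764984-31765283 (-), chr3:82145601-82145900 (-) and chr3:82074662-82074961 (-) in the order below. *Prkg1* and *Gucy1a1* have 2 listed starts each, of which 1 is shown. Capitals mark the CCAAT box (CCAAT, or ATTGG on the other strand) and the GC box (GGGCGG on either strand).
Nos1: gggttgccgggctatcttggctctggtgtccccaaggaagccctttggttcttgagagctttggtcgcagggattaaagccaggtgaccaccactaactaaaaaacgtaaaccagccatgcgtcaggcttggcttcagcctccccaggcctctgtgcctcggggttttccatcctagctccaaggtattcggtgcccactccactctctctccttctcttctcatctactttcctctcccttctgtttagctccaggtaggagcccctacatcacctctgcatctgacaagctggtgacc
Prkg1: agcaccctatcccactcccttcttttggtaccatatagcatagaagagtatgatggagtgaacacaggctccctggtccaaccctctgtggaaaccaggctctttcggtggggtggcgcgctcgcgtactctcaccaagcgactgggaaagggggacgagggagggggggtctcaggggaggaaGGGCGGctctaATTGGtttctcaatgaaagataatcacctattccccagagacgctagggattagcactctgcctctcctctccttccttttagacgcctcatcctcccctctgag
Gucy1a1: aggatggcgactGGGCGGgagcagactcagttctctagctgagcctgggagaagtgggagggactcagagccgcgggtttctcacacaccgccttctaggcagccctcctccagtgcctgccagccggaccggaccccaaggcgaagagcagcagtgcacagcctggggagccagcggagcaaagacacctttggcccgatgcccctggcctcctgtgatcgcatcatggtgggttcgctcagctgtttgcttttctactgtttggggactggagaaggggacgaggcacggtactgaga
Gucy1b1: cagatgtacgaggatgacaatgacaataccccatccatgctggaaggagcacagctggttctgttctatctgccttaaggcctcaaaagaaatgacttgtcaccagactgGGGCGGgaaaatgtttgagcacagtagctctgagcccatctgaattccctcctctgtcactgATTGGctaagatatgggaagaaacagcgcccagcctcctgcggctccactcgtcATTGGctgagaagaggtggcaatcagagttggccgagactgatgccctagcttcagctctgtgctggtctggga

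Both strands were also searched for the homeodomain core TAATTA, the posterior *Hox* motif TTTATG and the TATA box TATAAA, which share no full overlap with the boxes above, and none of the 4 windows held one of these. Of all 32851 promoters in the table, 5.29% held TAATTA, 11.9% TTTATG, 13.6% TATAAA, 37.4% CCAAT and 35.7% GGGCGG. *Prkg1* held 1 CCAAT box and 1 GC box, *Gucy1a1* 1 GC box and *Gucy1b1* 2 CCAAT boxes and 1 GC box, while *Nos1* held none of the 5 motifs. The 2 genes called together in I2 thus shared none of the 5. A match is a description of letters, and the lack of one says only that they are not in the window.

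Sex was compared between the female and the male pool, replicates 3 and 2, with region as a term. In skeletal MNs limma called 0 of 6 members, beside 0.0725% of 9660 genes, and 2 of the 6 had an unadjusted p under 0.05, as had 1195 of the 9660 genes. These were *Nos1ap*, with a mean of 515 CPM in the female and 391 CPM in the male pool (adjusted p = 0.360), and *Nos1*, with 7.25 and 13.9 CPM (adjusted p = 0.355). The male values of both include the library labelled cervical replicate 2, at 327 and 22.4 CPM, which was the lowest of the 9 for *Nos1ap* and the highest for *Nos1*. In the visceral MNs and the interneurons limma called 0 of 7 members each, beside 0.0513% of 9744 and 0.0521% of 9594 genes, and 0 of 7 had an unadjusted p under 0.05 in either class.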

How the data were processed

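Nuclei of 9 libraries (3 regions, 3 replicate pools) were measured by single-nucleus RNA sequencing. Upstream, reads were mapped to mm10 by Cell Ranger 3.1.0 and clustered in Seurat by the authors. The deposited values are treated as a score made by SCTransform (corrected counts), not raw counts, which their labels do not state. Corrected counts were summed per library and class or cluster, given 10 or more nuclei, and expressed as CPM. Tests used limma 3.58.1 (trend) in R 4.3.3 on log2(CPM + 5), for genes that reached 10 CPM in 3 or more sums, with Benjamini-Hochberg adjustment over all genes. The lumbar/sacral contrast within a class or cluster had no block in the tests given first, and the interaction had a term for each library. Libraries of 1 replicate number come from the same mice, and deviations from region means correlated between such pairs with a median r of 0.67 (skeletal MNs), 0.65 (visceral MNs) and 0.75 (interneurons) (9 pairs each), so the replicate block was run as an alternative. The sex contrast had region as a term and left out the mixed pool. On simulated sums of the same layout, limma found 96.5 to 100% of 200 changed genes. The planted changes were all larger than the differences of *Nos1* in visceral MNs and interneurons. Simulated libraries were drawn independently, without the deviations that libraries of the same mice share. The share found therefore does not cover smaller changes or such pairing. False calls exceeded the nominal 5% in 3 of 7 layouts: region (9.63%) and sex (6.13%) in visceral MNs and the interaction (6.76%).

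Nuclei were thinned to 4600 corrected counts with the seed 1, which left out 8.63% of them, 44.1% in lumbar/sacral replicate 1. Scrublet, through scanpy 1.11.5, called 164 nuclei (1.02%) as doublets. Other steps used Python 3.11.15, numpy 2.4.6, pandas 2.3.3, scipy 1.17.1 and matplotlib 3.10.9. Named were the 7 members, pathway genes called or apart (up to 4 per role group) and genes among the 3 most like each member. Members and lists were chosen with earlier results of these data known. Alternatives were another scaling, no or a stricter filter, pseudocounts of 1 and 20, the replicate block, leaving out each library, doublets or V8, and equal weights of clusters. Chosen after seeing the data were the tests without the pair of replicate 2, the class differences without cervical replicate 2, the interaction without V8, the sex contrast with a lumbar/sacral term, and all alternatives within clusters.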

Additional observations from a re-analysis of the deposited data

Results flagged for a closer look

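Among 21 combinations of member and class, 3 had 1 library far from the other 8, and among 140 combinations of member and cluster 16 did. The rule gives about 1 in 20 by chance for normally distributed values, and its rate for CPM, some of them near the floor, was not tested. Of the 19 flagged, 9 fell on the library labelled cervical replicate 2, which had 747 nuclei and the greatest depth. In skeletal MNs it was highest for *Nos1* (22.4 CPM) and *Prkg1* (1116 CPM), and in interneurons for *Gucy1a1* (21.3 CPM). In S2 it was highest for *Nos1* (52.0 CPM) and *Prkg1* (1390 CPM) and lowest for *Nos1ap* (271 CPM), on 71 nuclei. It was also highest for *Nos1* in I1 (1072 CPM) and for *Gucy1a1* in I1 (28.3 CPM) and I6 (37.6 CPM). In the same library the 2 visceral markers summed to 89.2 CPM in skeletal MNs, against 16.9 to 49.1 CPM in the other 8, and the 3 interneuron markers to 85.3 CPM, against 24.1 to 41.7 CPM. Their part in these values was not tested.

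The library labelled thoracic replicate 2 was highest for *Nos1* in I4 (651 CPM) and *Prkg2* in V3 (30.7 CPM) and lowest for *Prkg1* in I6 (301 CPM). Lumbar/sacral replicate 1 was highest for *Gucy1a1* in V7 (21.9 CPM), *Prkg1* in V1 (2265 CPM) and *Prkg2* in V4 (9.45 CPM). Lumbar/sacral replicate 2 was lowest for *Nos1ap* in V5 (51.7 CPM), and lumbar/sacral replicate 3 highest for *Gucy1a1* in I8 (3.66 CPM). Cervical replicate 3 was highest for *Gucy1a2* in V6 (505 CPM) and thoracic replicate 1 for *Gucy1b1* in V10 (93.8 CPM).

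The lumbar/sacral difference varied between classes, by the limma interaction over all genes, for *Gucy1a1* (adjusted p = 9.89e-05) and for 4 other pathway genes, which makes 5 of 41, where 9.99% of all 11292 genes were called. These were *Pde3a* (adjusted p = 5.34e-06), *Npr3* (adjusted p = 0.000166), *Itpr1* (adjusted p = 0.00247) and *Ddah1* (adjusted p = 0.0309). For *Ddah1* the adjusted p ran up to 0.222 with 1 library left out. The visceral sums of this test included V8, and the part of cluster make-up in these calls was not tested.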

How the results depend on the processing

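The 8 differences of members between classes numbered 7 to 9 under all alternatives, and the 128 of 147 cluster means at or above 10 CPM numbered 127 or 128. Members called by region in skeletal MNs and interneurons, and by sex in each class, numbered 0 under every alternative that was run, which for sex were the pseudocounts, the median of ratios, a lumbar/sacral term and leaving out 1 library. In visceral MNs 1 member was called under all alternatives but 3. The replicate block and the removal of thoracic replicate 3 added *Nos1* (2 called). Equal weights of clusters left 0, with almost no difference in *Nos1* (0.0101 in log2). Leaving out 1 library gave 1 to 2. For the interaction of class and region, 2 members passed with a pseudocount of 20 and without the pair of replicate 2, and 1 to 2 with 1 library left out. Within clusters, 2 to 5 of the tests of a member in a cluster were called with 1 library left out, against 4, fewest without lumbar/sacral replicate 2 (2 called), and 6 with the replicate block.

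Over all genes, the region count in skeletal MNs (1) was 4 with the replicate block, 12 without a filter, 0 with the stricter filter and with a pseudocount of 1, and 0 to 1 with 1 library left out. In visceral MNs (428) it was 737 with the block, 173 without V8, 71 with equal weights and 160 to 471 with 1 library left out, lowest without lumbar/sacral replicate 1 (160.0), 2 (176) or 3 (219). In interneurons (5) it was 44 with the block, 3 with the median of ratios, 2 with the stricter filter or a pseudocount of 1, 1 with equal weights, 13 without the pair of replicate 2 and 1 to 9 with 1 library left out. Equal weights use only S1 to S3, V1 to V4 with V7, and I1 to I6, and leaving out libraries leaves fewer samples. The cause of the other shifts was not tested.

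Values are taken to be corrected counts from nuclei, and low levels such as those of *Prkg2* and *Gucy1a1* rest on few counts (1293 and 2268 in all nuclei). Each region has 3 libraries from the same 3 pools, sex is 1 pool each, and the labels of 2 libraries went against *Hox* genes. A p that missed the threshold does not show that levels were equal.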
